A study of Rattus norvegicus with 9 samples.

Results

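The genes described here are those that the deposited expression table annotates with the gene ontology process term for protein N-linked glycosylation. Of 14636 genes in the table, 51 carried the term, and 50 of these reached 1 FPKM (fragments mapped to a transcript, scaled by its length and by the mapped fragments of the library) in at least 3 libraries, as did 10789 genes in all. All 50 were above 1 FPKM in every one of the 9 libraries. The lowest value among them was 2.33 FPKM (Dolpp1, Yap siRNA library 2). The remaining annotated gene, the sialyltransferase St8sia6, was listed at 0 to 0.1 FPKM and was not tested. The same annotation placed 27 of the 50 among proteins intrinsic to membranes (54%, against 14.3% of tested genes) and 11 in the endoplasmic reticulum membrane (22%, against 0.334%).

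In N-linked glycosylation, a branched sugar chain is built on the lipid dolichyl phosphate, first on the cytosolic face of the endoplasmic reticulum membrane and then on its luminal face. The oligosaccharyltransferase complex moves the finished chain onto asparagine residues of proteins entering the endoplasmic reticulum. Glucosidases and mannosidases then trim it while the protein is folding, and Golgi enzymes rebuild it into the mature glycans of receptors, ion channels, adhesion proteins and matrix proteins, many of which work at the surface of heart muscle cells.

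RNA came from primary cardiac myocytes of 2-day-old Sprague Dawley rats, enriched on a Percoll density gradient and grown in medium with 15% serum. At 16 hours the cells were transfected and they were collected 48 hours later. One group received siRNAs against Llgl1 and Llgl2 together, which encode polarity scaffold proteins. The second received siRNAs against Yap, the transcriptional coactivator of the Hippo pathway, and the third received universal negative control siRNAs. The labels give 2 siRNAs per target, each at 25 nM, so that the total siRNA load of the Llgl1/2 group cannot be told apart from its targets. Each group had 3 libraries. No label says that these were separate cultures, and p-values therefore measure the spread between libraries, which may be technical.

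The targeted transcripts were lower in the libraries labelled for them. Llgl1 was at 4.76, 4.65 and 4.75 FPKM after Llgl1/2 siRNA and 12.1, 11.9 and 12.4 FPKM after control siRNA, with a log2 change of -1.20 ± 0.11 (SE). Llgl2 changed by -0.84 ± 0.13, and its mean was 0.525 times that of the control. Yap1 was at 5.9, 4.43 and 6 FPKM after Yap siRNA and 55.3, 60.8 and 63.1 FPKM after control siRNA, a log2 change of -3.24 ± 0.11. Llgl1 and Llgl2 were also lower after Yap siRNA, with log2 changes of -0.43 and -0.48 (limma adjusted p = 0.00636 and 0.00865).

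The FPKM of a library summed to 572884 to 620119, and 10449 to 10565 genes per library reached 1 FPKM. Yap siRNA library 2 was the lowest of its group in 31 of the 50 glycosylation genes (62%, against 43.5% of tested genes). Control siRNA library 3 was the lowest of its group in 35 (70%, against 42.4%). Among cell type markers, 11 of 12 of cardiomyocytes were expressed widely enough to be tested (Ttn was not analysed here), and so were 11 of 12 endothelial, 11 of 12 leukocyte, 11 of 11 fibroblast, 10 of 10 smooth muscle and pericyte and 6 of 8 epicardial markers. No listed marker found in the table was at 0 in all 9 libraries; the endothelial marker Cldn5 and the macrophage marker Cd163 were at 0 in several libraries, and the pericyte marker Rgs5 in 1. Several of these lists moved with the siRNA. Endothelial markers summed to 285.6 to 301.8 FPKM after Llgl1/2 siRNA, 411 to 482.7 after Yap siRNA and 571 to 676.8 after control siRNA. Against control siRNA, 10 of the 11 tested were lower and none higher after Llgl1/2 siRNA, and 6 were lower and 1 higher after Yap siRNA. Cardiomyocyte markers summed to 19975.2 to 21293.3, 26467.6 to 29939.3 and 16896 to 20004 FPKM in the same 3 groups, with 7 higher and 1 lower after Llgl1/2 siRNA and 8 higher and 2 lower after Yap siRNA. Smooth muscle and pericyte markers summed to 2408.6 to 2885.5, 1464.2 to 1540.4 and 3674.4 to 3791.8 FPKM, sums held mostly by Acta2, Tagln and Des. Their calls went both ways, 4 higher and 2 lower after Llgl1/2 siRNA (median log2 change 0.29) and 5 higher and 4 lower after Yap siRNA (median 0.27). The sums were 112.1 to 149.4, 142.7 to 185.5 and 153.8 to 199 for leukocytes, 319.1 to 405.8, 394.1 to 487.5 and 349 to 505.4 for fibroblasts, and 44.1 to 55.2, 10.2 to 16 and 25.1 to 33.5 for the epicardium. Fibroblast sums were held mostly by Col1a1 and Col1a2. After Llgl1/2 siRNA, 0 leukocyte markers were higher and 6 lower, 1 fibroblast marker higher and 4 lower, and 3 epicardial markers higher and 0 lower. After Yap siRNA these calls were 1 higher and 5 lower, 4 higher and 1 lower, and 1 higher and 3 lower. The part of these other cells in the glycosylation results was not tested, and in bulk RNA fewer cells of a type cannot be told apart from less RNA per cell.

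After Llgl1/2 siRNA, 18 of the 50 glycosylation genes passed the test against control siRNA (limma adjusted p under 0.05 over all tested genes), 2 higher and 16 lower, where 40.2% of all tested genes passed (22.1% higher, 18.1% lower). The share called, 36%, was thus no higher than the background, while the calls were mostly downward: 32% of the glycosylation genes were lower and 4% higher. Their median log2 change was -0.16, against 0.03 over all tested genes. All log2 changes are of FPKM + 1, which understates the change of genes at low levels. The libraries of the 2 groups did not overlap for 22 of the 50 (44%), against 54.1% of tested genes. Without control siRNA library 2, the lower genes numbered 10 and the called genes 12, and 12 of the 18 calls held whichever library was left out.

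After Yap siRNA, 25 of the 50 (50%) passed against control siRNA, 5 higher and 20 lower, where 48.0% of tested genes passed (20.5% higher, 27.5% lower). Lower calls made up 40% of the glycosylation genes and higher calls 10%. Their median log2 change was -0.20, against -0.06 over all tested genes. The libraries did not overlap for 28 of the 50 (56%), against 54.9% of tested genes. Leaving out Yap siRNA library 2 gave 22 calls (4 higher, 18 lower), and 20 of the 25 calls held whichever library was left out. A log2 change of 0.5 or more in size was called for 13 genes after Yap siRNA (26%, against 21.9% of tested genes) and for 5 after Llgl1/2 siRNA (10%, against 17.1%), and Gfpt2 after Llgl1/2 siRNA was the 1 gene called with a change beyond 1.

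**Figure D1:**
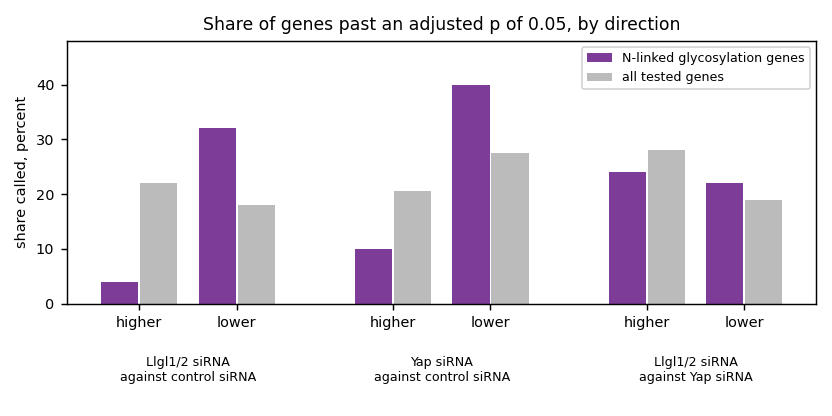
Percent of the 50 glycosylation genes and of the 10789 tested genes called higher or lower at an adjusted p of 0.05 in each comparison. After Llgl1/2 siRNA, 32% of the glycosylation genes and 18.1% of tested genes were lower than in control siRNA; after Yap siRNA these shares were 40% and 27.5%.

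In at least 1 of the 2 knockdowns, 35 of the 50 genes were called against control siRNA (70%, against 65.1% of tested genes), and 8 were called in both (16%, against 23.2%). The 7 genes lower in both (14%, against 10% of tested genes) were Rpn2, Dad1, Stt3b, Stt3a, Dpagt1, Uggt1 and Gfpt1, and none of these passed the test between the knockdowns. A further 13 were called lower after Yap siRNA and not called after Llgl1/2 siRNA (26%, against 15.4%), and 8 were called lower after Llgl1/2 siRNA and not called after Yap siRNA (16%, against 7.07%). In the direct comparison of the knockdowns, 8 of those 13 were higher and 5 of those 8 lower after Llgl1/2 siRNA. The 13 and 8 genes were picked with the same knockdown libraries, which favours these directions in advance. Nothing is therefore read from these counts. Prkcsh alone was called in opposite directions (2%, against 3.01% of tested genes). Both comparisons share the control libraries, so that a high or low control library moves both, and nothing is read from the shares called in both. In the RefSeq annotation, Rpn2, Mgat4b, Mpdu1, Dpm1, Gnpnat1, Alg12, Gmppb, Alg9 and Alg6 overlap another protein-coding gene, and their levels are less certain for that reason.

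**Figure D2:**
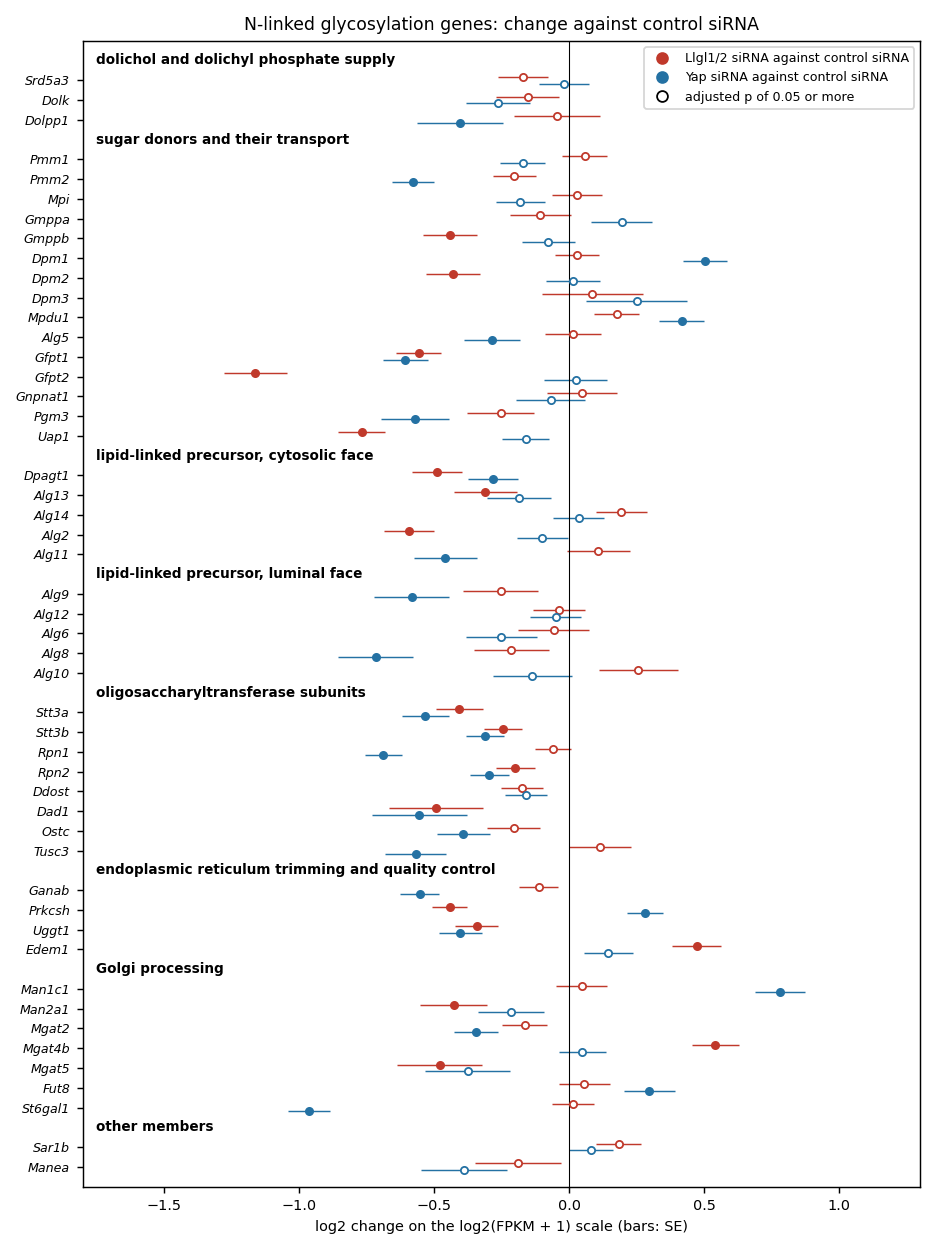
Log2 change in FPKM + 1 of 49 of the 50 glycosylation genes against control siRNA, ordered by role in the pathway, with Llgl1/2 siRNA and Yap siRNA side by side and bars of 1 standard error. Of the 8 oligosaccharyltransferase genes, 7 are called lower after Yap siRNA, Gfpt2 has the lowest value (-1.16, Llgl1/2 siRNA) and Man1c1 the highest (0.78, Yap siRNA).

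The pathway starts with the activated sugars. Of 15 donor genes, 5 were lower and none higher after Llgl1/2 siRNA, and 4 were lower and 2 higher after Yap siRNA. Among all tested genes, 18.1% were lower and 22.1% higher after Llgl1/2 siRNA, and 27.5% lower and 20.5% higher after Yap siRNA. These shares are the background for each count by role given here and below. Of the 15, 5 form the hexosamine route to UDP-N-acetylglucosamine, the first sugar of the chain. Both isoforms of the entry enzyme and the last enzyme, 3 of these 5, fell after Llgl1/2 siRNA. Over the 5 genes the median log2 change was -0.56.

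Gfpt1 (gene ID 297417), glutamine-fructose-6-phosphate transaminase, is the entry enzyme of that route. It was at 11.5, 12.4 and 11.8 FPKM after Llgl1/2 siRNA, 11.1, 11.8 and 11.5 FPKM after Yap siRNA and 18.4, 18.4 and 17.1 FPKM after control siRNA. Every knockdown library lay below every control library. The log2 change was -0.56 ± 0.08 after Llgl1/2 siRNA (adjusted p = 0.000162) and -0.61 ± 0.08 after Yap siRNA (adjusted p = 4.79e-05).

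Gfpt2 (ID 360518) encodes the second isoform of the entry enzyme. Its values were 3.22, 3.17 and 2.91 FPKM after Llgl1/2 siRNA, 8.76, 7.84 and 8.39 FPKM after Yap siRNA and 9.43, 8.39 and 6.87 FPKM after control siRNA. The Llgl1/2 libraries stood well below both other groups, which overlapped. Gfpt2 changed by -1.16 ± 0.12 after Llgl1/2 siRNA (adjusted p = 6.55e-06), a mean 0.377 times that of the control, and by 0.02 ± 0.12 after Yap siRNA (adjusted p = 0.881). The ratio of Gfpt2 to Gfpt1, both in FPKM, was 0.281, 0.255 and 0.247 after Llgl1/2 siRNA, 0.789, 0.667 and 0.731 after Yap siRNA, and 0.513, 0.456 and 0.403 after control siRNA, so that the 3 groups did not overlap.

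Uap1 (ID 498272), the pyrophosphorylase that makes UDP-N-acetylglucosamine, was at 31.6, 26.2 and 30.1 FPKM after Llgl1/2 siRNA, 46.4, 45.7 and 42.9 after Yap siRNA and 54.2, 51.4 and 45.8 after control siRNA. It fell after Llgl1/2 siRNA (log2 change -0.77 ± 0.09, adjusted p = 1.76e-05), while the value after Yap siRNA, -0.16 ± 0.09, did not pass (adjusted p = 0.145). Pgm3 (ID 363109), the phosphoacetylglucosamine mutase between them, was lower after Yap siRNA, at 6.59, 4.63 and 5.83 FPKM against 9.83, 8.71 and 8.08 FPKM after control siRNA (log2 change -0.57 ± 0.13, adjusted p = 0.00201). The acetyltransferase Gnpnat1 passed in neither comparison (log2 change 0.05 after Llgl1/2 siRNA and -0.07 after Yap siRNA).

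**Figure D3:**
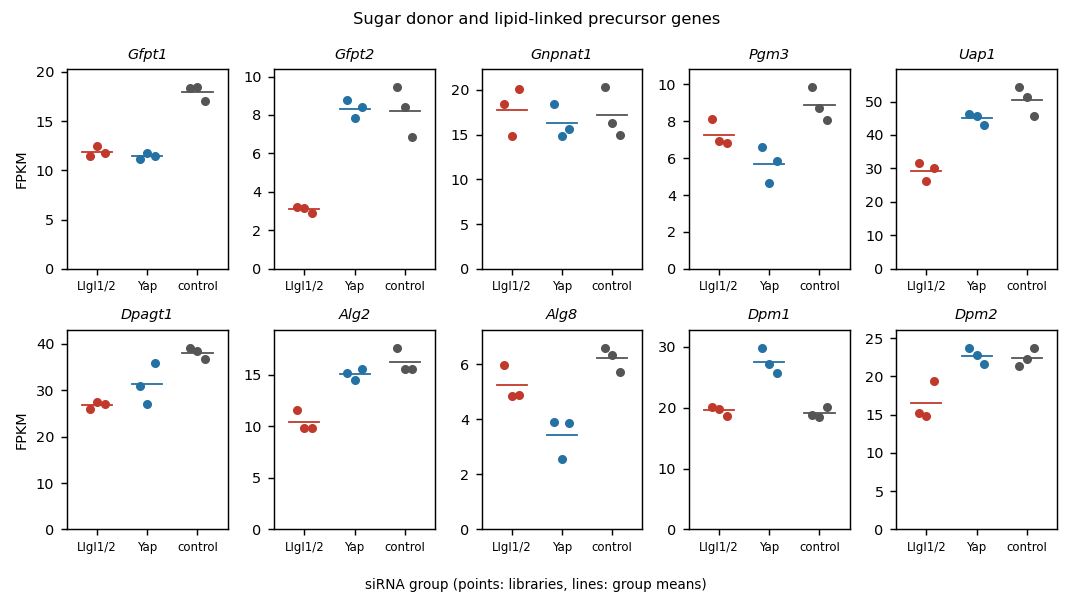
FPKM of each library for sugar donor and lipid precursor genes, by siRNA group, with group means as lines. Gfpt1 is low in both knockdowns, while Gfpt2 and Uap1 are low after Llgl1/2 siRNA (Gfpt2 at 2.91 to 3.22 FPKM, against 6.87 to 9.43 after control siRNA).

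Promoter sequence was available for 44 of the 50 genes in the RefSeq table of rat assembly GRCr8. The promoters of Gfpt1, Stt3a and Uap1 are shown as the 250 bases before the annotated start, 5′ to 3′ on the gene's strand. Gfpt1 and Stt3a were among the genes called lower in both knockdowns with the smallest p-values, and Uap1 was chosen after its values were seen because it held the only match to the unfolded protein response element core, TGACGTG, printed in capitals from 66 to 60 bases before the start. The other letters are in lower case.
Gfpt1, chr4:121053839-121054088, plus strand: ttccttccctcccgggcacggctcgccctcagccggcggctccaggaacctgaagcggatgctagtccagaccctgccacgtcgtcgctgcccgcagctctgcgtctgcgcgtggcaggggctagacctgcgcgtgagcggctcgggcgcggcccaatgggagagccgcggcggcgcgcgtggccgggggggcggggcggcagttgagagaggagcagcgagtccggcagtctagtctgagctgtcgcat
Stt3a, chr8:44671961-44672210, minus strand: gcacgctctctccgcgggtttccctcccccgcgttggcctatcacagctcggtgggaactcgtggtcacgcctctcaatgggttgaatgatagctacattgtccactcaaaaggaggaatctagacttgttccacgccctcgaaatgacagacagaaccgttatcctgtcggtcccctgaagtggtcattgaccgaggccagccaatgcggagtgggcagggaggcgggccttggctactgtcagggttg
Uap1, chr13:84910240-84910489, minus strand: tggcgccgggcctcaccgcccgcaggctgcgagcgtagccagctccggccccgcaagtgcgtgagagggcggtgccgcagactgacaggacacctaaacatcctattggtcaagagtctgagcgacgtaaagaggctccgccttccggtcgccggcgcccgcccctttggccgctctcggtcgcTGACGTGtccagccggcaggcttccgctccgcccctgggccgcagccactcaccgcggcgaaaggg

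Motifs were counted per gene on either strand of these windows, and a gene with more than 1 listed promoter counted if any of them held the motif. TGACGTG was found for 1 of 44 glycosylation genes (2.27%), against 2.35% of tested genes with a promoter and 1.72% of all 27457 genes with a promoter. The endoplasmic reticulum stress element (CCAAT, 9 bases, CCACG) was in none, against 0.182% of tested genes and 0.0765% of all. CACGTG was in 4 (9.09%), against 8.61% and 6.18%, and GGAATG, the motif of the TEAD factors that bind Yap, was in 4 (9.09%), against 10.5% and 12.9%. TGACGTG and CACGTG share the letters ACGTG but differ in the base before them, so that no run of bases counted for both. The promoters of Gfpt1 and Stt3a held none of the 4. The shares among glycosylation genes were thus near those of all tested genes. Median GC content was 58.2%, against 60.4% over tested genes.

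The mannose donors moved less uniformly. Of 8 genes that make GDP-mannose or dolichyl phosphate mannose, 2 were lower after Llgl1/2 siRNA, while 1 was lower and 1 higher after Yap siRNA. Pmm2 (ID 302915), the main phosphomannomutase, was at 37.04, 31.1 and 36.4 FPKM after Yap siRNA against 53.5, 53.7 and 49.9 FPKM after control siRNA, and its libraries did not overlap. The log2 change was -0.58 ± 0.08 (adjusted p = 4.79e-05), while after Llgl1/2 siRNA it was -0.20 ± 0.08 (adjusted p = 0.0541). Gmppb (ID 363145), the catalytic subunit of GDP-mannose pyrophosphorylase, was lower after Llgl1/2 siRNA, at 7.87, 7.12 and 6.25 FPKM against 9.98, 9.74 and 10.1 FPKM (log2 change -0.44 ± 0.10, adjusted p = 0.00305). Its regulatory subunit Gmppa passed in neither comparison. The gene of Gmppb overlaps Rnf123 and Amigo3 in the RefSeq annotation, and Rnf123 was higher after Llgl1/2 siRNA (log2 change 0.50).

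Dolichyl phosphate mannose synthase has a catalytic subunit, Dpm1, and the small membrane subunits Dpm2 and Dpm3, and these did not move together. Dpm1 (ID 296394) was at 20.2, 19.8 and 18.6 FPKM after Llgl1/2 siRNA, 29.8, 27.2 and 25.7 FPKM after Yap siRNA and 18.8, 18.5 and 20.1 FPKM after control siRNA. All 3 Yap libraries were above all others, and Dpm1 rose after Yap siRNA by 0.50 ± 0.08 (adjusted p = 0.000204). Dpm2 (ID 29640) was at 15.3, 14.8 and 19.4 FPKM after Llgl1/2 siRNA, 23.7, 22.7 and 21.6 FPKM after Yap siRNA and 21.4, 22.3 and 23.7 FPKM after control siRNA, and fell after Llgl1/2 siRNA (log2 change -0.43 ± 0.10, adjusted p = 0.00357). Dpm3 varied widely within groups, at 23.2, 16.8 and 16.99 FPKM after Llgl1/2 siRNA, 25.2, 16.2 and 23.2 after Yap siRNA and 22.9, 14.5 and 16.5 after control siRNA, and passed in neither comparison.

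Mpdu1 (ID 303244), required for the use of the dolichyl phosphate sugars, was higher after Yap siRNA, at 45.98, 40.02 and 39.01 FPKM against 31.04, 33.1 and 28.7 FPKM after control siRNA (log2 change 0.42 ± 0.08, adjusted p = 0.000958). It overlaps Sox15, which was also higher after Yap siRNA (11.4 against 4.73 FPKM, log2 change 1.13), and the use of strand in counting is not given in the sources used here. Alg5, which makes dolichyl phosphate glucose, was called lower after Yap siRNA (log2 change -0.28 ± 0.10, adjusted p = 0.0357). That call was lost without Yap library 2 or 3 or control library 1 or 2 (adjusted p = 0.0835, 0.106, 0.0793 and 0.165).

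On the cytosolic face, 3 of 6 precursor genes were lower after Llgl1/2 siRNA and 2 after Yap siRNA, with none higher. Dpagt1 (ID 300668), which adds the first sugar to dolichyl phosphate and is the target of tunicamycin, was at 25.9, 27.4 and 27.1 FPKM after Llgl1/2 siRNA, 30.9, 27.03 and 35.96 FPKM after Yap siRNA and 39.1, 38.4 and 36.6 FPKM after control siRNA. Both knockdown groups lay below the control libraries, the Yap group by a narrow margin. The log2 change was -0.49 ± 0.09 after Llgl1/2 siRNA (adjusted p = 0.000932) and -0.28 ± 0.09 after Yap siRNA (adjusted p = 0.0215). The Yap call was lost without Yap library 2 or control library 1 or 2 (adjusted p = 0.0863, 0.0684 and 0.0607).

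Alg2 (ID 313231), a mannosyltransferase of the same stage, was at 11.6, 9.87 and 9.85 FPKM after Llgl1/2 siRNA, 15.2, 14.4 and 15.6 FPKM after Yap siRNA and 17.6, 15.6 and 15.5 FPKM after control siRNA. It fell after Llgl1/2 siRNA (log2 change -0.59 ± 0.09, adjusted p = 0.000255), with no overlap of libraries. The next mannosyltransferase, Alg11 (ID 361174), was lower after Yap siRNA, at 9.54, 7.9 and 10.5 FPKM against 12.3, 15.4 and 11.8 FPKM after control siRNA (log2 change -0.46 ± 0.12, adjusted p = 0.00507). The gene listed as Alg13 (ID 300284), which the GRCr8 table names Alg13l1, is set apart there from a second Alg13 gene, and its level is uncertain because reads may be shared. It was called lower after Llgl1/2 siRNA (log2 change -0.31 ± 0.12, adjusted p = 0.049), and the call was lost in 7 of the fits that left out 1 library, with adjusted p up to 0.199 (without Llgl1/2 library 1). Alg14, which anchors that enzyme, passed in neither comparison.

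The 5 luminal glycosyltransferases ranged from 2.54 to 12.34 FPKM over all libraries, and 2 of them were lower after Yap siRNA. Alg8 (ID 293129), which adds a glucose, was at 5.95, 4.85 and 4.88 FPKM after Llgl1/2 siRNA, 3.89, 2.54 and 3.86 FPKM after Yap siRNA and 6.58, 6.34 and 5.7 FPKM after control siRNA. The Yap libraries lay below all others, with a log2 change of -0.72 ± 0.14 (adjusted p = 0.00081). Alg9 (ID 367083), a mannosyltransferase, changed by -0.58 ± 0.14 after Yap siRNA (adjusted p = 0.00341). Alg6, Alg10 and Alg12 passed in neither comparison. None of the 5 passed after Llgl1/2 siRNA, where their log2 changes ran from -0.25 to 0.26.

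Dolichol supply was represented by 3 genes, Srd5a3, Dolk and Dolpp1, which make and recycle dolichol and its phosphate, and none passed after Llgl1/2 siRNA. Dolpp1, the dolichyl pyrophosphate phosphatase, lay just inside the threshold of 0.05 after Yap siRNA (log2 change -0.40 ± 0.16), at 4.59, 2.33 and 3.11 FPKM against 5, 4.3 and 4.58 FPKM. Its groups overlapped, and leaving out any library but Yap library 1 lost the call (adjusted p = 0.0583 to 0.221, the highest without Yap library 2).

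Among oligosaccharyltransferase subunits, lower calls after Yap siRNA covered most of the complex. Of its 8 annotated subunits, 7 were lower after Yap siRNA (against 27.5% of tested genes), none higher, with a median log2 change of -0.46. After Llgl1/2 siRNA 4 were lower (against 18.1% of tested genes), with a median of -0.20. Its subunits held the 5 highest levels of the whole set in control libraries, from Rpn1 at 219 ± 5.28 FPKM to Dad1 at 105 ± 7.32 FPKM (mean ± SD, n = 3). The summed FPKM of the 8 subunits was 807 to 866.5 after Llgl1/2 siRNA, 648.3 to 772.3 after Yap siRNA and 930.9 to 995.8 after control siRNA, with no overlap between knockdown and control libraries. With the 3 tested subunits that lack the term, Ost4, Krtcap2 and Magt1, the sums were 1034 to 1144 after Llgl1/2 siRNA, 1005 to 1191.6 after Yap siRNA and 1205.4 to 1253.1 after control siRNA, and Ost4, at 317 FPKM after Yap siRNA against 209.5 FPKM after control siRNA, offset part of the lower Yap sum.

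Rpn1 (ID 25596), or ribophorin I, which presents some membrane proteins to the catalytic subunit, was at 215, 204 and 212 FPKM after Llgl1/2 siRNA, 139.9, 127 and 141 FPKM after Yap siRNA and 222, 222 and 213 FPKM after control siRNA. The Yap libraries stood below all 6 others. The log2 change was -0.69 ± 0.07 after Yap siRNA (adjusted p = 2.57e-06) and -0.06 ± 0.07 after Llgl1/2 siRNA (adjusted p = 0.503). Ddost (ID 313648), a structural subunit at a similar level, did not pass in either comparison (adjusted p = 0.0899 after Llgl1/2 siRNA and 0.105 after Yap siRNA). It was at 165, 167 and 169 FPKM after Llgl1/2 siRNA, 181, 148 and 178 after Yap siRNA and 189, 186 and 189.8 after control siRNA. Every knockdown library of Ddost nevertheless lay below every control library. Among the 8 annotated subunits, log2 changes after Yap siRNA thus ran from -0.69 (Rpn1) to -0.16 (Ddost). With the 3 tested subunits that lack the term, the range reached 0.59 (Ost4).

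The 2 alternative catalytic subunits were both lower in both knockdowns. Stt3a (ID 500972), whose complex works mainly as proteins enter the endoplasmic reticulum, was at 31.8, 32.3 and 29.4 FPKM after Llgl1/2 siRNA, 29.7, 25.1 and 30.8 FPKM after Yap siRNA and 42.8, 42.6 and 39.4 FPKM after control siRNA. No knockdown library reached the control range, and the log2 change was -0.41 ± 0.09 after Llgl1/2 siRNA (adjusted p = 0.00208) and -0.53 ± 0.09 after Yap siRNA (adjusted p = 0.000196). Stt3b (ID 363160), whose complex also acts on sites that were skipped, was at 43.6, 45.1 and 41.4 FPKM after Llgl1/2 siRNA, 39.5, 42.9 and 41.7 FPKM after Yap siRNA and 52.3, 52.9 and 49.4 FPKM after control siRNA. It too was below the control range in all 6 knockdown libraries, with log2 changes of -0.24 ± 0.07 (adjusted p = 0.0133) and -0.31 ± 0.07 (adjusted p = 0.00245). The Llgl1/2 call of Stt3b was lost without Llgl1/2 library 3 or control library 2 (adjusted p = 0.067 and 0.0547). The ratio of Stt3a to Stt3b was 0.731, 0.717 and 0.709 after Llgl1/2 siRNA, 0.753, 0.586 and 0.739 after Yap siRNA and 0.819, 0.805 and 0.797 after control siRNA.

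Tusc3 (ID 290783), the oxidoreductase that serves the Stt3b complex, was at 23.4, 21.8 and 21.6 FPKM after Llgl1/2 siRNA, 15.9, 13.4 and 11.5 FPKM after Yap siRNA and 23.3, 20.3 and 18.2 FPKM after control siRNA. It was lower after Yap siRNA (log2 change -0.57 ± 0.11, adjusted p = 0.00102) and did not pass after Llgl1/2 siRNA (0.11 ± 0.11). Ostc (ID 362040), an accessory subunit of the Stt3a complex, was lower after Yap siRNA, at 123, 102 and 122 FPKM against 161, 159.8 and 136 FPKM (log2 change -0.39 ± 0.10, adjusted p = 0.00482). Rpn2 (ribophorin II) was called lower after both, with log2 changes of -0.20 ± 0.07 after Llgl1/2 siRNA (adjusted p = 0.0398) and -0.30 ± 0.07 after Yap siRNA (adjusted p = 0.00392). The Llgl1/2 call of Rpn2 was lost when any one of Llgl1/2 libraries 2 and 3 and control libraries 1 and 2 was left out (adjusted p = 0.125, 0.11, 0.143 and 0.0813).

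Dad1 (ID 192275), a small subunit first known as a defender against cell death, was at 82.3, 62.4 and 80.6 FPKM after Llgl1/2 siRNA, 86.6, 51.6 and 81.3 FPKM after Yap siRNA and 112, 97.8 and 106 FPKM after control siRNA. All knockdown libraries were below the controls, and library 2 was far the lowest in each knockdown. The log2 change was -0.49 ± 0.18 after Llgl1/2 siRNA (adjusted p = 0.0455) and -0.55 ± 0.18 after Yap siRNA (adjusted p = 0.0234). The Llgl1/2 call was lost without Llgl1/2 library 2 or 3 or any 1 control library (adjusted p = 0.0619 to 0.133), and the Yap call without control library 1 or 3 (adjusted p = 0.0735 and 0.0547).

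**Figure D4:**
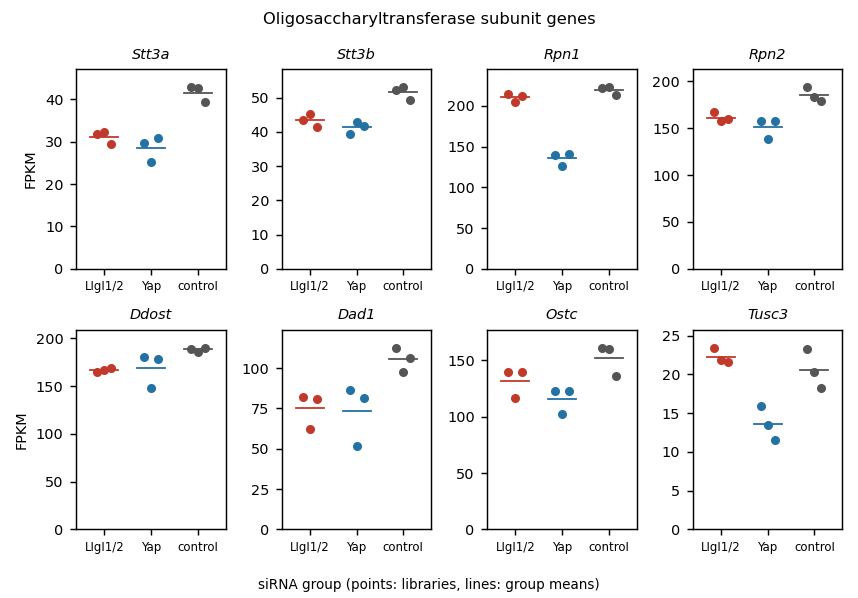
FPKM of each library for the oligosaccharyltransferase subunits, by siRNA group, with group means as lines. The Yap siRNA libraries lie below all control libraries for the subunits called lower, with Rpn1 at 126.59 to 141.02 FPKM against 213.04 to 222.43 FPKM.

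The annotation held 4 genes that act on the chain in the endoplasmic reticulum. Their clearest feature was that, after Yap siRNA, the subunits of glucosidase II moved in opposite directions. Prkcsh (ID 300445), its regulatory subunit, was at 66.2, 61.9 and 61.4 FPKM after Llgl1/2 siRNA, 108, 100 and 107 FPKM after Yap siRNA and 84.4, 86.03 and 87.9 FPKM after control siRNA. The 3 groups did not overlap, the Llgl1/2 libraries being lowest and the Yap libraries highest. Prkcsh fell after Llgl1/2 siRNA by 0.44 ± 0.07 on the log2 scale (adjusted p = 0.000163) and rose after Yap siRNA by 0.28 ± 0.07 (adjusted p = 0.00317).

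Ganab (ID 293721), the catalytic subunit, was at 54.2, 58.1 and 54.8 FPKM after Llgl1/2 siRNA, 41.1, 38.1 and 43.4 FPKM after Yap siRNA and 62.4, 60.2 and 58.3 FPKM after control siRNA. Its Yap libraries were below all others, with a log2 change of -0.55 ± 0.07 (adjusted p = 3.23e-05), while after Llgl1/2 siRNA it was -0.11 ± 0.07 (adjusted p = 0.232). In FPKM, the ratio of Prkcsh to Ganab was 1.22, 1.07 and 1.12 after Llgl1/2 siRNA, 2.62, 2.63 and 2.46 after Yap siRNA and 1.35, 1.43 and 1.51 after control siRNA. The ratio therefore separated the 3 groups, being highest after Yap siRNA.

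Uggt1 (ID 171129), which puts a glucose back on misfolded glycoproteins, was at 23.7, 25.2 and 24.4 FPKM after Llgl1/2 siRNA, 22.5, 22.6 and 25 FPKM after Yap siRNA and 28.7, 33.2 and 31.8 FPKM after control siRNA. It was lower in all knockdown libraries than in any control library, with log2 changes of -0.34 ± 0.08 after Llgl1/2 siRNA (adjusted p = 0.00409) and -0.40 ± 0.08 after Yap siRNA (adjusted p = 0.00102). Edem1 (ID 297504), which directs misfolded glycoproteins to degradation, was higher after Llgl1/2 siRNA, at 23.3, 22.8 and 24.2 FPKM against 17.3, 16.9 and 15.7 FPKM after control siRNA (log2 change 0.47 ± 0.09, adjusted p = 0.00104). After Yap siRNA Edem1 was at 18.4, 16.5 and 20.8 FPKM and did not pass (adjusted p = 0.204).

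The 7 annotated genes listed for Golgi processing moved in both directions, 1 higher and 2 lower after Llgl1/2 siRNA, 2 higher and 2 lower after Yap siRNA. St6gal1 (ID 25197), which caps N-glycans with sialic acid, was at 23.5, 23.03 and 23.3 FPKM after Llgl1/2 siRNA, 10.7, 11.4 and 11.9 FPKM after Yap siRNA and 22.8, 23.9 and 22.5 FPKM after control siRNA. The Yap libraries had a mean 0.492 times that of the control libraries, and the Llgl1/2 libraries lay within the control range. The log2 change was -0.96 ± 0.08 after Yap siRNA (adjusted p = 4.43e-07) and 0.01 ± 0.08 after Llgl1/2 siRNA (adjusted p = 0.904).

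Man1c1 (ID 362625), an alpha-mannosidase that trims the chain in the Golgi, was at 7.23, 8.1 and 7.48 FPKM after Llgl1/2 siRNA, 12.96, 12.7 and 14.3 FPKM after Yap siRNA and 7.61, 6.98 and 7.39 FPKM after control siRNA. It rose after Yap siRNA by 0.78 ± 0.09 (adjusted p = 1.59e-05), a mean 1.82 times that of the control. Mgat4b (ID 303100), a branching N-acetylglucosaminyltransferase, was at 37.6, 38.3 and 36.5 FPKM after Llgl1/2 siRNA, 25.4, 24.2 and 29.7 FPKM after Yap siRNA and 27.3, 25.2 and 23.9 FPKM after control siRNA. It rose after Llgl1/2 siRNA by 0.54 ± 0.09 (adjusted p = 0.000295), with no overlap of the libraries.

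Fut8 (ID 432392), which adds the core fucose, was called higher after Yap siRNA, at 16.2, 20.1 and 17.6 FPKM against 14.4, 15.2 and 13.5 FPKM after control siRNA (log2 change 0.30 ± 0.09, adjusted p = 0.0186). The call was lost without Yap library 2 or control library 3 (adjusted p = 0.0739 and 0.0668). Mgat2 (ID 94273), which starts the second complex-type branch, was lower after Yap siRNA (log2 change -0.34 ± 0.08, adjusted p = 0.00345). Man2a1 (ID 25478), a Golgi mannosidase, and Mgat5 (ID 65271), which makes a further branch, were called lower after Llgl1/2 siRNA, with log2 changes of -0.43 ± 0.12 and -0.48 ± 0.16 (adjusted p = 0.013 and 0.0266). Man2a1 lost its call without Llgl1/2 library 1 or control library 2 (adjusted p = 0.0515 and 0.0738), and Mgat5 when any one of Llgl1/2 libraries 1 and 2 and control libraries 2 and 3 was left out (adjusted p = 0.084 to 0.105). The vesicle coat GTPase Sar1b and the mannosidase Manea, which were placed in none of the role lists, passed in neither comparison.

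**Figure D5:**
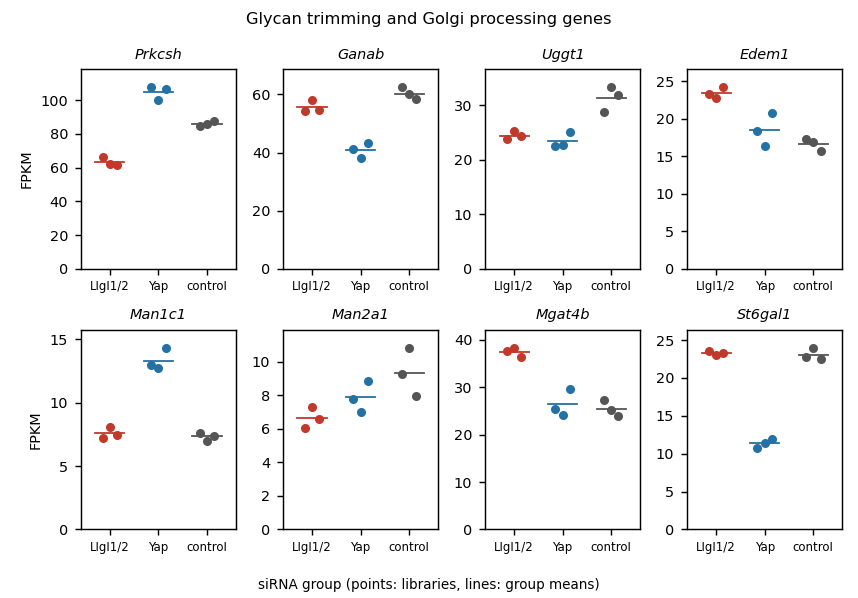
FPKM of each library for the trimming and Golgi genes, by siRNA group, with group means as lines. Prkcsh separates the 3 groups, at 61.35 to 66.19 FPKM after Llgl1/2 siRNA, 100 to 107.56 after Yap siRNA and 84.43 to 87.86 after control siRNA; St6gal1 is low and Man1c1 high after Yap siRNA.

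Set directly against each other, the knockdowns differed in 23 of the 50 genes, 12 higher and 11 lower after Llgl1/2 siRNA than after Yap siRNA, where 47.0% of tested genes passed (28.0% higher, 19.0% lower). The split depended on scaling: with quantile normalization the calls were 9 higher and 14 lower, and with median-ratio scaling 9 higher and 13 lower. Higher after Llgl1/2 siRNA by the most were St6gal1 (log2 difference 0.98 ± 0.08, adjusted p = 5.38e-07), Tusc3 (0.68 ± 0.11, adjusted p = 0.000287), Rpn1 (0.63 ± 0.07, adjusted p = 7.67e-06) and Alg11 (0.57 ± 0.12, adjusted p = 0.00132). Lower by the most were Gfpt2 (-1.19 ± 0.12, adjusted p = 3.69e-06), Man1c1 (-0.73 ± 0.09, adjusted p = 3.41e-05), Prkcsh (-0.72 ± 0.07, adjusted p = 1.87e-06) and Uap1 (-0.61 ± 0.09, adjusted p = 8.85e-05). Of the 23 calls, 17 held whichever library was left out. For Ganab, the difference was 0.44 ± 0.07 (adjusted p = 0.000252), opposite in sign to that of its partner subunit Prkcsh.

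Other genes of the pathway that lack the annotation term were read from a list of textbook members, 36 of which were tested. After Llgl1/2 siRNA 3 of these were higher and 10 lower (median log2 change -0.11), and after Yap siRNA 4 were higher and 14 lower (median -0.19). Of all tested genes, 22.1% were higher and 18.1% lower after Llgl1/2 siRNA, and 20.5% were higher and 27.5% lower after Yap siRNA. The lectin chaperone calreticulin, Calr, was called in the same opposite directions as Prkcsh, with means of 661.04 FPKM after Llgl1/2 siRNA, 1443.3 after Yap siRNA and 954.52 after control siRNA (log2 changes -0.53 ± 0.07 and 0.59 ± 0.07). Its membrane partner calnexin, Canx, was higher after Llgl1/2 siRNA (0.20 ± 0.07, adjusted p = 0.0388). The cargo receptor pair Lman1 and Mcfd2, which carries glycoproteins out of the endoplasmic reticulum, was lower after Llgl1/2 siRNA (-0.41 and -0.58, adjusted p = 0.00109 and 0.000648). Mcfd2 was also lower after Yap siRNA (-0.34, adjusted p = 0.0146), while Lman1 did not pass there (-0.10, adjusted p = 0.296).

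Of 15 tested Golgi genes without the term, 1 was higher and 4 lower after Llgl1/2 siRNA, and 2 were higher and 7 lower after Yap siRNA. Among these, Man1a2 (mannosidase) and St3gal4 (sialyltransferase) were lower after Llgl1/2 siRNA, with log2 changes of -0.75 ± 0.08 and -0.66 ± 0.08 (adjusted p = 7.88e-06 and 2.01e-05). St3gal4 was also lower after Yap siRNA (-0.25, adjusted p = 0.0155). B4galt1, a galactosyltransferase, was likewise lower in both knockdowns, with log2 changes of -0.61 after Llgl1/2 siRNA and -0.62 after Yap siRNA (adjusted p = 7.15e-05 and 4.09e-05). Mgat1, which starts complex-type branching, had means of 51.7 FPKM after Llgl1/2 siRNA, 33.1 after Yap siRNA and 49.9 after control siRNA, and fell after Yap siRNA (log2 change -0.59 ± 0.11, adjusted p = 0.000807). The Golgi carriers of UDP-galactose and UDP-N-acetylglucosamine, Slc35a2 and Slc35a3, were also lower after Yap siRNA (-0.68 and -0.69, adjusted p = 0.00158 and 0.000232). The oligosaccharyltransferase subunits Ost4 and Magt1, which lack the term, moved apart after Yap siRNA. Ost4 had a mean of 317 FPKM after Yap siRNA against 209.5 FPKM after control siRNA and rose by 0.59 ± 0.10 (adjusted p = 0.000292), whereas Magt1, the alternative to Tusc3, had 16.5 against 22.8 FPKM and fell by 0.46 ± 0.12 on the log2 scale (adjusted p = 0.00581). Tmem258, Uggt2 and Gnptab were not analysed here.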

How the data were processed

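RNA of 9 libraries was compared, 3 per siRNA group. FPKM values per gene and library, rounded to 2 decimals, were deposited by the authors. The rn6 genome and the tools Bowtie2 and HISAT are named, per the submitters' processing notes, without a role, and per the labels' protocols libraries were made by a low-input poly-A BGISEQ-500 method. The counting tool, annotation and use of strand are not given in the sources used here. No counts were given, so depth is unknown. A column named for all libraries equalled Llgl1/2 library 2 in all 14636 rows and was not used (1 column). Damaged symbols (31) were looked up by gene ID in RefSeq, which gave 29. Genes had to reach 1 FPKM in 3 or more libraries, and 3847 did not. Differences in log2(FPKM + 1) were tested with limma 3.58.1 (R 4.3.3), moderated variances with trend and robust settings, in a single fit of 9 libraries. Benjamini-Hochberg adjustment was over 10789 genes, with a threshold of 0.05. The same limma model and variance settings, but not the other steps, were tried on simulated data. The median standard error was 0.106. Alternatives were a pseudocount of 0.1, no filter, quantile and median-ratio scaling, fits of 6 libraries, a replicate block, an adjusted p of 0.01, plain variances and leaving out each library.

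The annotated genes, pathway lists and markers were chosen with earlier results of these data known. Named genes were, in each comparison with control, those with the largest called changes whose groups do not overlap and up to 4 per role by p, the largest in the direct comparison, and others of the set to account for all its genes. Promoters came from RefSeq GRCr8, an assembly other than rn6, by gene ID. In that annotation 21 of the 50 genes overlap another gene. One gene of the set enters the counts but is not reported here by name.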

Additional observations from a re-analysis of the deposited data

Results flagged for a closer look

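Prkcsh, the regulatory subunit of glucosidase II, was the 1 annotated gene called in opposite directions by the knockdowns. Against control siRNA its log2 change was -0.44 after Llgl1/2 siRNA and 0.28 after Yap siRNA. The difference itself, Llgl1/2 siRNA minus Yap siRNA, was -0.72 ± 0.07 on the log2 scale (limma adjusted p = 1.87e-06), with means of 63.2 FPKM after Llgl1/2 siRNA and 104.8 FPKM after Yap siRNA, and the 3 libraries of each group did not overlap.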

How the results depend on the processing

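Over all alternatives, the 50 genes gave 2550 log2 changes in the 3 comparisons. Of these, 2388 stayed on the same side of the threshold, 40 became called and 122 lost their call. None of the called values changed sign. Some values called in neither fit did. Alg6, for Llgl1/2 siRNA against control siRNA, was at -0.06 in the main fit and reached 0.03 with a library left out. At an adjusted p of 0.01, the genes lower after Llgl1/2 siRNA than after control siRNA numbered 10. Leaving out each library gave 10 to 18 lower and 2 to 3 higher in that comparison, the 10 without control library 2. For Yap siRNA against control siRNA, leaving out each library gave 17 to 20 lower and 4 to 6 higher, and for Llgl1/2 siRNA against Yap siRNA 10 to 12 higher and 8 to 11 lower. Apart from the stricter threshold and left-out libraries, other settings ended the calls of Rpn2, Dad1 and Alg13 after Llgl1/2 siRNA (adjusted p = 0.0501 to 0.0742) and of Alg5 and Dolpp1 after Yap siRNA (0.0509 to 0.0909). Between the knockdowns they ended those of Alg5, Alg10, Fut8, Gmppa and Pmm1 (0.0505 to 0.163). A fit left with 2 libraries in a group assumes that these vary like the others.

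The labels number the libraries of every group from 1 to 3 without saying that a number is shared. Correlations were taken after the group mean of each gene was subtracted from its log2 values. By this measure, same-numbered libraries of different groups correlated by more than 0.1 in 5 of 9 pairs (0.01 to 0.236). Other pairs ran from -0.179 to 0.069. Without the subtraction, libraries of different groups correlated at 0.957 to 0.979. Each library was also matched to each other group, and in 15 of these 18 overlapping matches the best partner had its own number. This is a hint from the data and not from the design. With a replicate block, 19 genes were called after Llgl1/2 siRNA (3 higher, 16 lower), 28 after Yap siRNA (6 higher, 22 lower) and 25 between the knockdowns (14 higher, 11 lower), and no call was lost. FPKM without counts gives no limit of detection, and 3 libraries a group limit the precision.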
